A study of Mus musculus with 12 samples.

Results

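Ptprz1, a receptor-type tyrosine phosphatase, was followed together with its ligands pleiotrophin (Ptn) and midkine (Mdk) and with the syndecans Sdc1, Sdc2, Sdc3 and Sdc4. These 7 genes were taken by gene ID from the 56748 IDs of the count table, and all of them were among the 14338 IDs that passed the expression filter. Ptprz1 (ENSMUSG00000068748) was chosen by its counts at 24 h: of the genes that met an earlier rule on level and replicate overlap, it had the lowest fitted fold change in spheroids against attached cells at 24 h. The others were joined to it by their known relation: Ptn (ENSMUSG00000029838), Mdk (ENSMUSG00000027239), Sdc1 (ENSMUSG00000020592), Sdc2 (ENSMUSG00000022261), Sdc3 (ENSMUSG00000025743) and Sdc4 (ENSMUSG00000017009). The level of Ptprz1 in the 24 h libraries is therefore given as a description without a test, and only its 0 h comparison of cultures was tested.

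RNA was sequenced from mouse mesenchymal stem cells obtained from adipose tissue, grown in DMEM with fetal bovine serum and antibiotics. The 4 groups, of 3 libraries each, were attached 2D cells at 0 h, attached 2D cells at 24 h, 3D spheroids at 0 h and 3D spheroids at 24 h. No genotype, strain or further agent is named in the labels for any group. The labels leave unstated how long the aggregates had been assembling at 0 h and whether replicates came from separate cultures or animals, so the spread behind the p-values is that of these libraries and may be technical. Libraries held between 10182600 and 17109600 expected counts, and the deepest was 3D 24 h replicate 1. The labelled cell type was not checked against marker genes, because the tables used here pair only these 7 IDs with symbols.

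PTPRZ1 carries chondroitin sulfate chains and is best known from glial cells and neural progenitors. Pleiotrophin and midkine, small heparin-binding growth factors, bind its chains, cluster the receptor and block its phosphatase activity, which leaves substrates such as beta-catenin more phosphorylated. Syndecans are transmembrane proteoglycans whose heparan sulfate chains also bind both growth factors. SDC3 is known as a pleiotrophin receptor of neurons, SDC4 as a component of focal adhesions, SDC1 from epithelia and plasma cells, and SDC2 from mesenchymal cells.

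Of the 7 genes, 5 had a promoter entry in RefSeq (build GRCm38.p6), namely Ptprz1, Ptn, Sdc1, Sdc3 and Sdc4. The 250 bases before the annotated start are shown for genes that were higher in spheroids at 24 h (Ptn and Sdc1) and for genes that were lower (Sdc3 and Sdc4). They are written 5′ to 3′ on the strand of the gene, and capitals mark matches on either strand to the GC box GGGCGG and to the core TATAA of the TATA box.
Ptn, chr6:36810180-36810429, minus strand: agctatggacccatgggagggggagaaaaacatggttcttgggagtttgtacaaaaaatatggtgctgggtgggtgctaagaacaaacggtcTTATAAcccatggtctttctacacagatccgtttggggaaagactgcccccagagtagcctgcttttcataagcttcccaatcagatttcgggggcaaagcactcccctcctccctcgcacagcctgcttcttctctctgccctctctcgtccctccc
Sdc1, chr12:8771146-8771395, plus strand: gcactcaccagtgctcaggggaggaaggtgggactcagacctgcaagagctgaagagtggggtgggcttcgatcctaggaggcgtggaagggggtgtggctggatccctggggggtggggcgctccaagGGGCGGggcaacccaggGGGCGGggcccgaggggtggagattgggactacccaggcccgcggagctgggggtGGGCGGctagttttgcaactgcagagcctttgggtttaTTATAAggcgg
Sdc3, chr4:130792287-130792536, plus strand: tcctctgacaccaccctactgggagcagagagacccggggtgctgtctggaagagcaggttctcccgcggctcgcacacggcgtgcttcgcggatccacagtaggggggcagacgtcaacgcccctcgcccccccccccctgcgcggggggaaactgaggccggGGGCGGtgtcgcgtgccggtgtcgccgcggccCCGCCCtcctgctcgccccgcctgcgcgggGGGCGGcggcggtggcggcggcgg
Sdc4, chr2:164443189-164443438, minus strand: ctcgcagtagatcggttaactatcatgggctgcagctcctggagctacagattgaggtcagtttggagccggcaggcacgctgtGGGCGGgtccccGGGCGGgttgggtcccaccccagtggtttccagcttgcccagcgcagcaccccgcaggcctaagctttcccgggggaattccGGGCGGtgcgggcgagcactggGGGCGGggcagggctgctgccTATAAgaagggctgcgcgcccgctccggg
The GC box had 3 matches before Sdc1, 3 before Sdc3, 4 before Sdc4 and 2 before Ptprz1, and the Ptn stretch had 0. Of all 32851 promoters in the table, 32.7% held at least 1 match in their 250 bases. TATAA had 2 matches before Ptn and 2 before Sdc1, which in both stretches are the overlapping matches of a single TTATAA on the 2 strands. It had 1 match before Sdc4 and 0 before Sdc3 and Ptprz1, against 22.8% of all promoters with at least 1. The same stretches held 32 CG dinucleotides for Sdc3, 22 for Ptprz1, 19 for Sdc4, 10 for Sdc1 and 5 for Ptn, where the median promoter held 6. Mdk and Sdc2 had no entry, so these counts were not compared between genes that were higher and lower. The matches describe the letters of these windows.

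Levels per gene length are given as TPM, transcript abundance scaled to a common total, computed back from the deposited log2(TPM + 1) values. Fold changes come from the expected counts, scaled to a common library size (CPM), by edgeR's quasi-likelihood test. The threshold for a call was 0.05 on p-values adjusted by Benjamini-Hochberg over all genes tested. In bulk RNA, fewer cells that express a gene and less of its RNA per cell cannot be told apart.

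Ptprz1 transcripts were most abundant in attached cells at 24 h and nearly absent from spheroids at the same time. In attached cells at 0 h the libraries had 53, 57 and 31 counts, or 1.59, 1.10 and 0.58 TPM. In attached cells at 24 h they had 232, 389 and 441 counts, or 5.67, 10.91 and 9.09 TPM. In spheroids at 0 h they had 15, 17 and 22 counts, or 0.46, 0.38 and 0.60 TPM, and in spheroids at 24 h 1, 3 and 3 counts, or 0.02, 0.06 and 0.07 TPM. The order of the groups was attached cells at 24 h, attached cells at 0 h, spheroids at 0 h and spheroids at 24 h, and no neighbouring groups overlapped in CPM. In TPM the 0 h groups overlapped, since 2D replicate 3 (0.58) lay below 3D replicate 3 (0.60).

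At 0 h, Ptprz1 was lower in spheroids by a log2 fold change of -1.24 ± 0.34 (SE, adjusted p = 0.00701 in edgeR). By summed counts the 2D libraries were 2.34-fold above the 3D libraries. The exact 95% counting interval was 1.70 to 3.26, which covers counting error only and leaves out the spread between replicates. The edgeR call held without any single library. It was not made by limma-voom (adjusted p = 0.0721), limma on log2(TPM + 1) (adjusted p = 0.126) or limma on log2(TPM + 0.1) (adjusted p = 0.0931).

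Ptprz1 was selected on these values: 29.0 ± 7.19 CPM in 2D and 0.174 ± 0.104 CPM in spheroids at 24 h (SD, n = 3). These were 1062 counts in 2D against 7 in 3D, a ratio of 184 with a counting interval of 88.9 to 458. The counting intervals in this paragraph cover counting error only. They leave out the spread between replicates and the selection of Ptprz1 on these counts, and serve as no test. The fitted log2 fold change was -7.42, or -6.53 with a prior count of 2, -3.15 on the log2(TPM + 1) scale and -5.82 on the log2(TPM + 0.1) scale. Without 3D 24 h replicate 1, which had a single count, it was -6.87. Relative to 0 h, the summed counts were 8.26-fold higher at 24 h in attached cells (counting interval 6.92 to 9.91), while in spheroids they were 9.53-fold lower (4.32 to 24.8). On the log2 scale the fitted fold change in attached cells was 3.01, or 2.18 on the log2(TPM + 1) scale. In spheroids it was -3.17, or -2.41 with a prior count of 2, -1.95 on the log2(TPM + 0.1) scale and -0.49 on the log2(TPM + 1) scale, and -2.63 without 3D 24 h replicate 1. The cultures thus differed from their 0 h levels in opposite directions, and no test was applied to either. In TPM, Ptprz1 lay above 39.9% of the genes tested in attached cells at 24 h, above 14.8% in attached cells at 0 h, above 4.83% in spheroids at 0 h and above 0.663% in spheroids at 24 h.

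**Figure D1:**
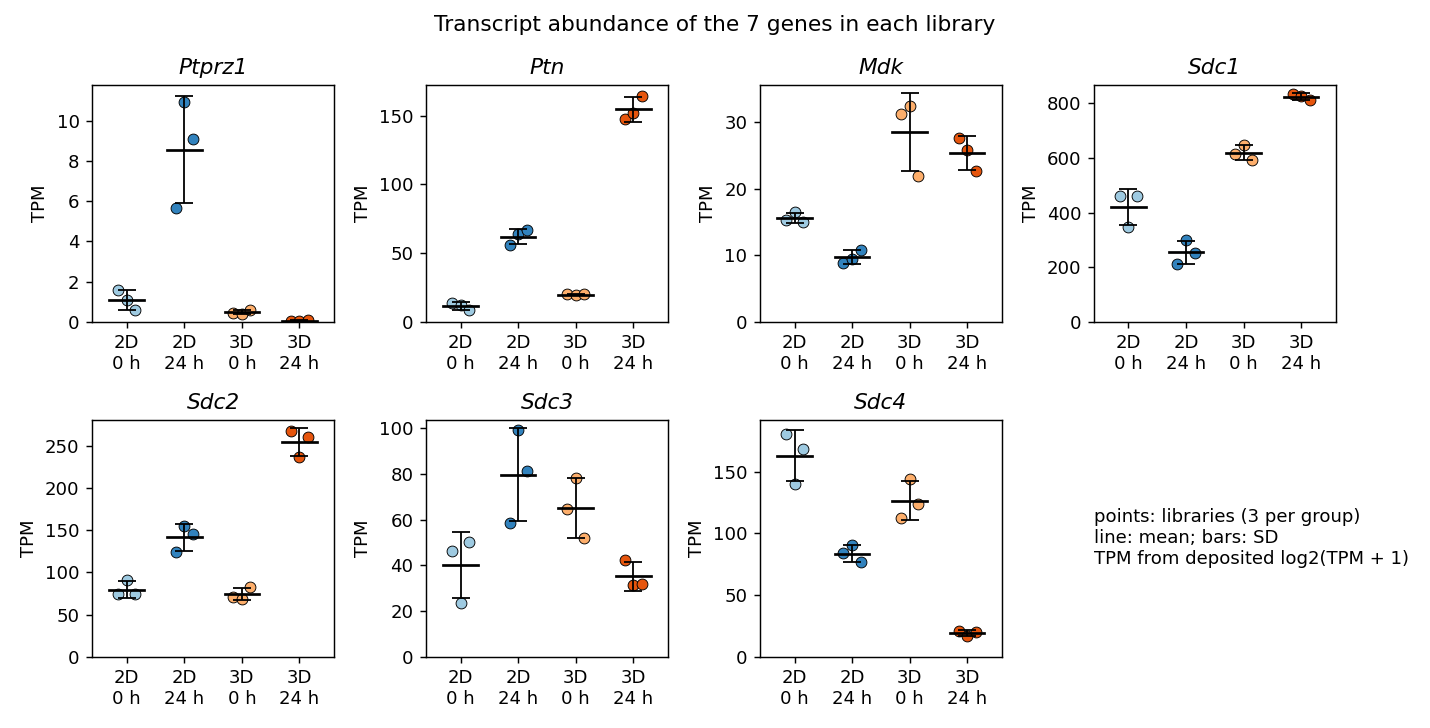
TPM of each of the 7 genes (vertical axis, from 0) in the 12 libraries, by culture and time. Points are libraries, the horizontal line is the mean of 3 and bars are the SD. Ptprz1 was highest in attached cells at 24 h, at 5.67 to 10.91 TPM, and lay between 0.02 and 0.07 TPM in spheroids at 24 h, where Ptn, Sdc1 and Sdc2 had their highest levels.

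Over the 12 libraries, the gene whose centred log2 CPM lay nearest to that of Ptprz1 among 14337 others was ENSMUSG00000052353, at a root mean square distance of 0.67, where the median distance of all genes was 2.40. Its means were 71.2 ± 20.4 CPM in attached cells at 0 h, 270.0 ± 41.9 in attached cells at 24 h, 13.7 ± 0.516 in spheroids at 0 h and 4.39 ± 0.0854 in spheroids at 24 h (SD, n = 3). The next was ENSMUSG00000061048, at a distance of 0.73, with means of 27.3 ± 2.96, 67.7 ± 7.19, 9.38 ± 1.05 and 1.76 ± 0.422 CPM in the same order (SD, n = 3). The ranking used all 12 libraries, those at 24 h included, so similar differences between the groups are what it selects. Of the ligands and syndecans, Sdc4 (1.93) and Sdc3 (2.06) were nearest to Ptprz1 and Ptn (3.04) was farthest. Neither Sdc4 nor Sdc3 had the order of groups of Ptprz1. By mean CPM, Sdc4 was highest in attached cells at 0 h (232), and at 0 h Sdc3 was higher in spheroids (176) than in attached cells (127).

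Both ligands were more abundant in spheroids than in attached cells at either time, but only Ptn increased over the 24 h. Ptn stood at 13.67, 12.43 and 8.50 TPM in attached cells at 0 h and at 19.94, 19.49 and 20.06 TPM in spheroids at 0 h. At 24 h it stood at 56.01, 63.67 and 66.65 TPM in 2D and at 147.4, 152.06 and 164.61 TPM in 3D. None of the 4 groups overlapped, and the order was spheroids at 24 h, attached cells at 24 h, spheroids at 0 h and attached cells at 0 h. In spheroids Ptn was higher by a log2 fold change of 0.64 ± 0.16 at 0 h (SE, adjusted p = 0.00438 in edgeR) and by 1.28 ± 0.15 at 24 h (SE, adjusted p = 2.1e-06 in edgeR).

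Over time Ptn rose by a log2 fold change of 2.20 ± 0.16 in 2D (SE, adjusted p = 6.53e-08 in edgeR), or 4.58-fold. It rose by 2.84 ± 0.16 in 3D (SE, adjusted p = 3.57e-10 in edgeR), or 7.17-fold. Ptn lay above 98.7% of all genes tested by its log2 fold change over time in 2D and above 99.1% in 3D. In attached cells Ptn and its receptor gene Ptprz1 were thus both higher at 24 h than at 0 h, whereas in spheroids Ptn was higher and Ptprz1 lower. The culture difference of Ptn was greater at 24 h by 0.65 ± 0.22 on the log2 scale (SE, adjusted p = 0.0283 in edgeR). That call ended without 2D 0 h replicate 1 (adjusted p = 0.0702), 2D 0 h replicate 2 (0.0574), 3D 0 h replicate 3 (0.0563), 3D 24 h replicate 2 (0.0574) or 3D 24 h replicate 3 (0.0507), and under limma-voom (adjusted p = 0.0548) and limma on either TPM scale (0.0536 and 0.0865).

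Mdk had few counts, between 33 and 157 in a library. Its levels were 15.24, 16.53 and 15.07 TPM in attached cells at 0 h and 8.83, 9.44 and 10.85 TPM in attached cells at 24 h. In 3D they were 31.23, 32.48 and 21.87 TPM at 0 h and 27.68, 25.85 and 22.70 TPM at 24 h. Every spheroid library exceeded every attached library, and the 3D groups overlapped each other. Mdk was higher in spheroids by a log2 fold change of 0.72 ± 0.22 at 0 h (SE, adjusted p = 0.0127 in edgeR). Without 3D 0 h replicate 2 this was 0.64 and no longer called (adjusted p = 0.0511).

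At 24 h Mdk was higher in spheroids by 1.29 ± 0.23 on the log2 scale (SE, adjusted p = 0.000218 in edgeR). In 2D it fell over the 24 h by a log2 fold change of -0.92 ± 0.23 (SE, adjusted p = 0.00592 in edgeR). In 3D the same comparison gave -0.35 ± 0.21 and was not called (SE, adjusted p = 0.188 in edgeR). The culture difference of Mdk at 24 h minus that at 0 h was 0.57 ± 0.32 and was not called either (SE, adjusted p = 0.165 in edgeR).

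The makeup of the ligand pool differed between the times in both cultures. Ptn made up 42.1% ± 5.66 of the summed ligand TPM in attached cells at 0 h and 41.4% ± 5.59 in spheroids at 0 h (SD, n = 3). At 24 h it made up 86.5% ± 0.552 in 2D and 85.8% ± 1.87 in 3D (SD, n = 3). The share of Ptn thus overlapped between the cultures at either time and did not overlap between the times. The summed ligand TPM was 27.1 ± 3.10 in attached cells at 0 h, 48.4 ± 5.58 in spheroids at 0 h, 71.8 ± 6.43 in attached cells at 24 h and 180.1 ± 6.40 in spheroids at 24 h (SD, n = 3).

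**Figure D2:**
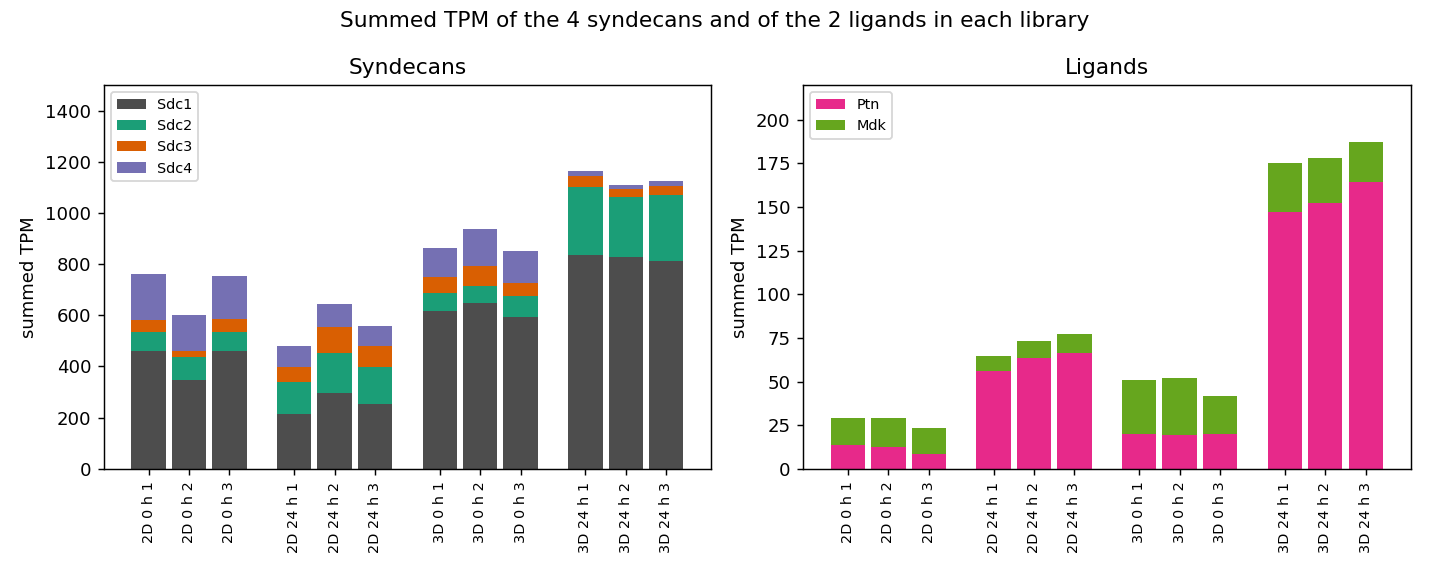
Stacked TPM (vertical axes, from 0) of the 4 syndecans and of the 2 ligands in each of the 12 libraries, which are ordered by group and replicate along the horizontal axis. Ptn took 86.5% of the ligand TPM in 2D and 85.8% in spheroids at 24 h, and Sdc4 held 1.70% of the syndecan TPM in spheroids at 24 h.

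Sdc1 was the most abundant syndecan in every library. It stood at 459.89, 345.98 and 459.14 TPM in attached cells at 0 h and at 213.41, 298.01 and 252.95 TPM in attached cells at 24 h. In 3D it stood at 615.45, 647.16 and 593.57 TPM at 0 h and at 834.02, 826.50 and 810.79 TPM at 24 h. The groups did not overlap, and in spheroids at 24 h Sdc1 lay above 98.8% of the genes tested. In spheroids Sdc1 was higher by a log2 fold change of 0.41 ± 0.11 at 0 h (SE, adjusted p = 0.00716 in edgeR) and by 1.69 ± 0.12, or 3.23-fold, at 24 h (SE, adjusted p = 3.21e-09 in edgeR).

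Sdc1 moved in opposite directions over time. It fell by a log2 fold change of -0.95 ± 0.11 in 2D (SE, adjusted p = 1.25e-05 in edgeR) and rose by 0.33 ± 0.11 in 3D (SE, adjusted p = 0.0227 in edgeR). The rise in 3D was no longer called without 3D 0 h replicate 3 (log2 0.29, adjusted p = 0.0868) or 3D 24 h replicate 2 (log2 0.30, adjusted p = 0.0719). The culture difference was greater at 24 h than at 0 h by 1.28 ± 0.16 on the log2 scale (SE, adjusted p = 7.3e-06 in edgeR).

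Sdc2 was not called between the cultures at 0 h and was higher in spheroids at 24 h. It stood at 73.88, 90.69 and 74.26 TPM in 2D and 71.19, 68.57 and 82.46 TPM in spheroids at 0 h, and these groups overlapped. At 24 h it stood at 124.00, 155.22 and 146.00 TPM in 2D and at 267.40, 236.64 and 260.82 TPM in 3D, with no overlap. The log2 fold change in spheroids was -0.25 ± 0.11 at 0 h (SE, adjusted p = 0.0644 in edgeR) and 0.84 ± 0.11 at 24 h (SE, adjusted p = 5.51e-06 in edgeR). The 0 h value was called as lower without 2D 0 h replicate 3 (adjusted p = 0.0408), 3D 0 h replicate 3 (0.0439) or 3D 24 h replicate 1 (0.0471).

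Sdc2 rose over time in both cultures, by a log2 fold change of 0.61 ± 0.11 in 2D (SE, adjusted p = 0.000418 in edgeR) and by 1.70 ± 0.11 in 3D (SE, adjusted p = 1.64e-09 in edgeR). The culture difference at 24 h exceeded that at 0 h by 1.09 ± 0.15 (SE, adjusted p = 2.06e-05 in edgeR).

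Sdc3 rose over time in attached cells and fell in spheroids, the same signs as the untested differences of Ptprz1. It stood at 46.10, 23.42 and 50.37 TPM in attached cells at 0 h and at 58.59, 99.04 and 81.28 TPM in attached cells at 24 h. In 3D it stood at 64.47, 78.41 and 51.98 TPM at 0 h and at 42.23, 31.33 and 31.69 TPM at 24 h. In TPM the times did not overlap within either culture. Attached cells at 0 h overlapped spheroids at 24 h, and attached cells at 24 h overlapped spheroids at 0 h. In 7 of 12 libraries its expected counts had decimals, so some reads were split between Sdc3 and other genes. In the assignment of reads its level is less certain than that of the 6 others, whose counts were whole. Counting error is another matter and was larger for Ptprz1 and Mdk, which had fewer counts than Sdc3.

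Over time Sdc3 rose by a log2 fold change of 0.83 ± 0.19 in 2D (SE, adjusted p = 0.00306 in edgeR) and fell by 0.77 ± 0.19 in 3D (SE, adjusted p = 0.00295 in edgeR). At 24 h it was lower in spheroids, with a log2 fold change of -1.13 ± 0.19 (SE, adjusted p = 0.000125 in edgeR). At 0 h it was higher in spheroids by 0.47 ± 0.19 (SE, adjusted p = 0.0498 in edgeR). The 0 h groups overlapped in CPM but not in TPM. Tested directly, the change of the culture difference from 0 h to 24 h was -1.60 ± 0.27 (SE, adjusted p = 0.000142 in edgeR).

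The 0 h call of Sdc3 lay at the threshold and ended under 11 of 23 alternatives, 9 of which left out a library. It ended without 2D 0 h replicate 1 (adjusted p = 0.0620), 2D 24 h replicate 3 (0.0643), 3D 0 h replicates 1 (0.115), 2 (0.112) and 3 (0.0590) and 3D 24 h replicates 1 (0.0579), 2 (0.0540) and 3 (0.0839). Without 2D 0 h replicate 2, the library with the lowest level, the log2 fold change was 0.23 (adjusted p = 0.214). With only the 0 h groups fitted it also ended (adjusted p = 0.0648).

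Sdc4 was lower in spheroids at both times and fell over time in both cultures. It stood at 180.62, 140.27 and 168.71 TPM in attached cells at 0 h and at 83.83, 90.34 and 76.39 TPM in attached cells at 24 h. In 3D it stood at 112.25, 143.96 and 123.48 TPM at 0 h and at 21.10, 16.48 and 20.35 TPM at 24 h. The 0 h groups overlapped in TPM but not in CPM, and both 24 h groups lay apart from all others. In spheroids Sdc4 was lower, with a log2 fold change of -0.45 ± 0.11 at 0 h (SE, adjusted p = 0.00235 in edgeR) and of -2.25 ± 0.11, or 4.77-fold, at 24 h (SE, adjusted p = 7.58e-11 in edgeR).

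Over time Sdc4 fell by a log2 fold change of -1.05 ± 0.11 in 2D (SE, adjusted p = 2.33e-06 in edgeR). It fell by 2.86 ± 0.12, or 7.25-fold, in 3D (SE, adjusted p = 6.43e-12 in edgeR). Among all genes tested, 2.02% had a lower log2 fold change over time in 3D. The culture difference was more negative at 24 h, and the change from 0 h was -1.81 ± 0.15 (SE, adjusted p = 8.96e-08 in edgeR).

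**Figure D3:**
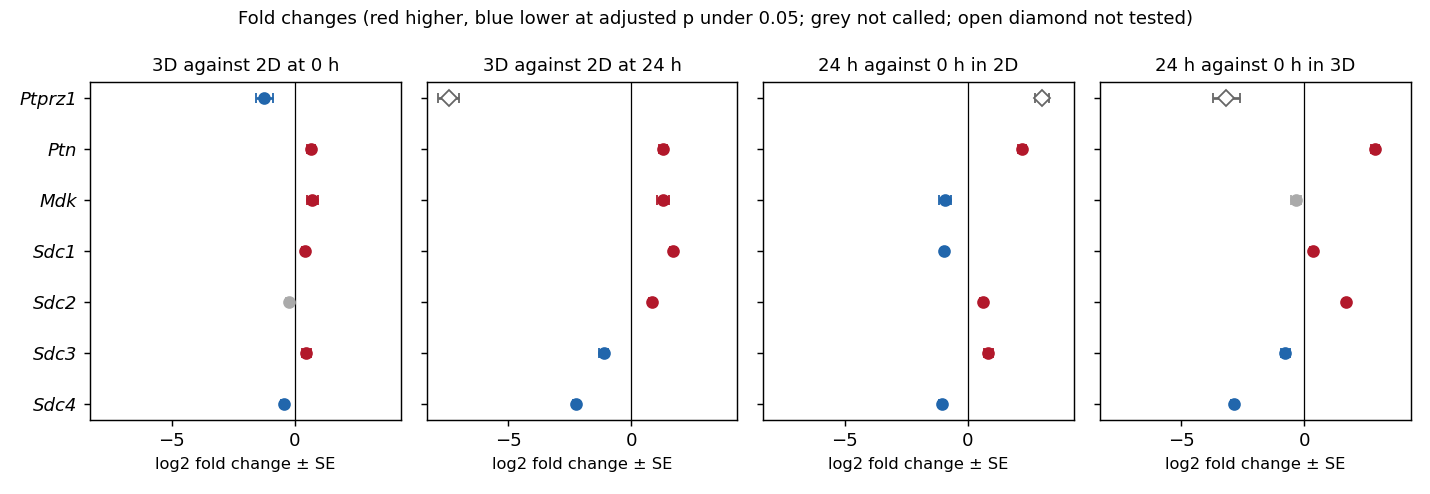
Log2 fold changes (horizontal axes, with bars for the SE) of the 7 genes in the 4 comparisons of 2 groups. Red points were higher and blue points lower at an adjusted p under 0.05, grey points were not called and open diamonds mark Ptprz1 where it was not tested. Ptprz1 and Sdc3 lie above 0 for 24 h against 0 h in 2D and below 0 in 3D.

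The makeup of the syndecan pool differed between the groups and was described without a test. Sdc1 made up 59.7% ± 1.82 of the summed syndecan TPM in attached cells at 0 h, 45.4% ± 0.949 in attached cells at 24 h, 70.0% ± 1.18 in spheroids at 0 h and 72.7% ± 1.48 in spheroids at 24 h (SD, n = 3). Sdc4 made up 23.2% ± 0.684, 15.1% ± 2.07, 14.3% ± 1.19 and 1.70% ± 0.189 in the same order (SD, n = 3). Sdc2 took 25.4% ± 1.10 in 2D and 22.5% ± 1.04 in spheroids at 24 h, and 11.6% ± 3.07 and 8.41% ± 1.20 at 0 h (SD, n = 3). Sdc3 held its largest share, 14.1% ± 1.66, in attached cells at 24 h and its smallest, 3.09% ± 0.465, in spheroids at 24 h (SD, n = 3). The pool as a whole summed to 704 ± 90.2 TPM in attached cells at 0 h, 560 ± 81.4 in attached cells at 24 h, 884 ± 47.0 in spheroids at 0 h and 1133 ± 28.1 in spheroids at 24 h (SD, n = 3). By RNA level, syndecans were thus most abundant in spheroids at 24 h, where Sdc1 and Sdc2 made up nearly all of the pool.

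Counted over the 6 ligands and syndecans, 5 (all but Sdc2) were called between the cultures at 0 h, where 45.8% of all genes tested were called in either direction. The median log2 fold change of the 6 was 0.44, with Sdc2 and Sdc4 below 0, and that of all genes 0.02. At 24 h all 6 were called, against 42.5% of all genes, with medians of 1.06 for the 6, of which Sdc3 and Sdc4 lay below 0, and -0.0018 for all genes. Over time in 2D all 6 were called, against 34.4% of all genes, with medians of -0.16 for the 6, of which Mdk, Sdc1 and Sdc4 lay below 0, and 0.02 for all genes. Over time in 3D 5 (all but Mdk) were called, against 48.5%, with medians of -0.01 for the 6, of which Mdk, Sdc3 and Sdc4 lay below 0, and -0.0043 for all genes. The culture difference itself changed between the times for 5 of the 6 (all but Mdk), against 39.1% of all genes, with medians of 0.61 for the 6, of which Sdc3 and Sdc4 lay below 0, and -0.02 for all genes.

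With 45.8% of genes called at 0 h, a call there is common, and the 5 of 6 are a description of these genes. These genes were put together with earlier results of these libraries known, so the counts are no independent evidence. The comparisons share libraries: the 2D 24 h libraries enter both the 24 h comparison of cultures and the 2D comparison of times.

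**Figure D4:**
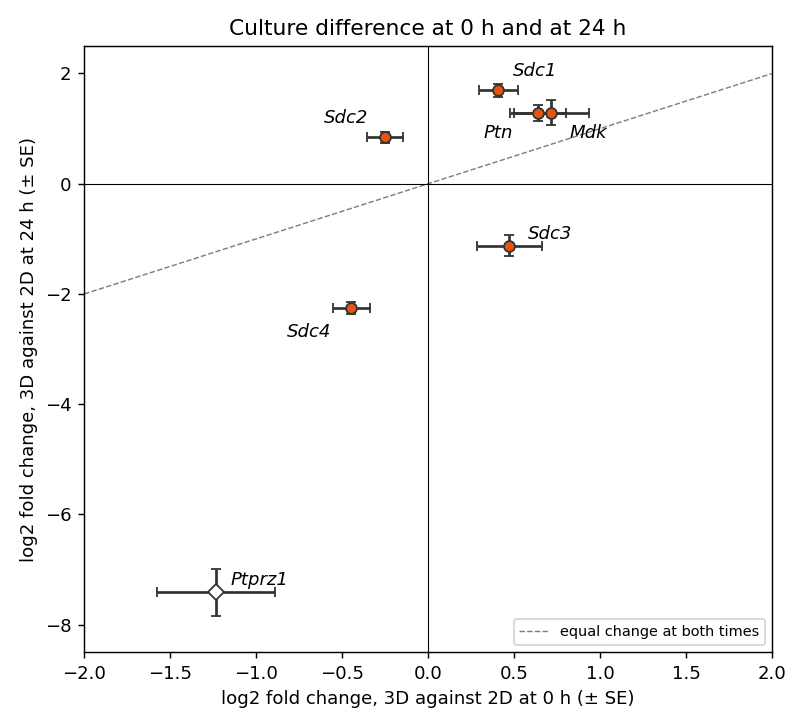
Log2 fold change of spheroids against attached cells at 0 h (horizontal axis) and at 24 h (vertical axis) for the 7 genes, with SE bars and a dashed line of equal change. Ptprz1 is drawn open because it was not tested at 24 h. Ptn, Mdk and Sdc1 lie above 0 on both axes, and Sdc4 and Ptprz1 below 0 on both. Sdc2 (-0.25 and 0.84) and Sdc3 (0.47 and -1.13) lie on different sides of 0 on the 2 axes, where the 0 h value of Sdc2 was not called and that of Sdc3 lay at the threshold.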

How the data were processed

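RNA was measured by sequencing in 12 libraries, 3 in each of 4 groups of culture and time. Per the submitters' processing notes, FastQC 0.11.9, STAR, RSEM and the build GRCm39 were used. Not given in the sources used here were the gene annotation, the settings and the remaining versions. One table deposited by the authors holds expected counts per gene and the other log2(TPM + 1) values. Day 0 and day 1 in the column names were read as 0 h and 24 h.

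Expected counts were rounded and fitted in R 4.3.3 with edgeR 4.0.16 (filterByExpr with a minimum count of 10, TMM scaling, quasi-likelihood test, prior count 0.125) in all 12 libraries with 1 term per group, leaving 8 residual degrees of freedom. The SE is the unshrunken log2 fold change over the root of the F statistic. All 14338 genes were tested together in 5 comparisons. The steps were also run on counts simulated from the fitted model, with 200 genes changed in spheroids at 24 h alone. Many more genes were called in the data, so that run cannot show how the calls hold at such an extent of change. Replicate pairs of a group differed by more than sampling noise (chi-square per degree of freedom at least 4.51). Counting intervals cover counting error only.

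Every gene of the set is named, and genes like Ptprz1 were ranked by distance; members and lists were chosen with earlier results of these data known. Symbols come from the definition of the set. The RefSeq gene table held 0 of the 56748 IDs, so the 8 pathway lists and 7 marker lists, written as symbols, were not tested. Promoters were matched by symbol. Alternatives were other scalings and filters, DESeq2 1.42.0, limma 3.58.1 with voom or on log2 TPM, the groups compared alone, a replicate block, a prior count of 2 and leaving out each library. The prior count of 2 alters fold changes and not p-values, so no call could end under it.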

Additional observations from a re-analysis of the deposited data

Results flagged for a closer look

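For 5 genes the culture difference was itself different at 24 h and at 0 h, by the edgeR test of that difference. Its log2 value, 24 h minus 0 h, was 1.28 for Sdc1 (edgeR adjusted p = 7.3e-06), 1.09 for Sdc2 (edgeR adjusted p = 2.06e-05) and 0.65 for Ptn (edgeR adjusted p = 0.0283). It was -1.60 for Sdc3 (edgeR adjusted p = 0.000142) and -1.81 for Sdc4 (edgeR adjusted p = 8.96e-08). The Sdc1, Sdc2, Sdc3 and Sdc4 calls held under all 22 alternatives run. Among these, the prior count of 2 leaves the p-value as it is and could not end a call. The Ptn call ended under 8 of the alternatives, with 0.51 to 0.86 as the range over all 22.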

How the results depend on the processing

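Over 798 values of the 7 genes under 23 alternatives, none changed direction. Of the tested values 25 lost a call and 3 gained one. Of the others, those of Ptprz1 in comparisons with 24 h libraries, which carry no call, 13 moved by more than 1 SD between replicates. The number of ligands and syndecans called at 0 h ran from 3 (without 3D 0 h replicate 2) to 6 when a library was left out. The number of all genes called stayed within 1.5 times under every alternative. Scaling by upper quartiles moved the median of all genes at 0 h from 0.02 to 0.14, and library totals moved it to 0.12 at 0 h and at 24 h. Replicate numbers did not pair the libraries: deviations of same-numbered libraries correlated at -0.23 to 0.05 across genes, and at most 2 of 6 libraries in a comparison correlated best with their own number. With the replicate block, 6127 genes were called at 0 h, 5681 at 24 h, 4332 over time in 2D, 6523 over time in 3D and 5134 for the difference between the times; of the tested calls on these genes it ended that of Sdc3 at 0 h (adjusted p = 0.0601) and no other. Ptprz1 in spheroids at 24 h rests on 7 counts, and the interval given for its fold covers counting error only.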

Other observations

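The ratio of a gene's expected count to its TPM, relative to the median gene of the library, follows the effective length that the quantification assigned to it. That length can shift when reads are assigned to longer or shorter transcripts, and other sources of a shift were not told apart here. Set to 100% at the mean of attached cells at 0 h, it was 98.3% ± 0.732 for Ptn, 101% ± 0.596 for Sdc1 and 101% ± 0.393 for Sdc2 in spheroids at 24 h (SD, n = 3). For Ptprz1 it was 100.5%, 133% and 109.5% in the spheroid libraries at 24 h, which had 1, 3 and 3 counts. Their TPM of 0.02, 0.06 and 0.07 are so low that rounding of the deposited values shifts the ratio. In attached cells at 24 h the ratio of Ptprz1 was 117% ± 1.98, against 80.1%, 110% and 114% in the 2D libraries at 0 h. For Sdc3 it was 109% ± 1.24 in spheroids at 24 h and 95.1% ± 13.7 in spheroids at 0 h (SD, n = 3). Over 7932 genes with at least 100 counts in every library, the middle 90% of group means lay between 87.3% and 121.5% in spheroids at 24 h and between 92.0% and 120.2% in attached cells at 24 h. Ptprz1 and Mdk, with fewer counts, are not among those genes.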
